A study of Canis lupus familiaris with 4 samples.

Results

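The 9 genes described here are PTGS2, PTGS1, PTGES, PTGES2, PTGES3, PTGER2, PTGER4, HPGD and PLA2G4A, which make, sense or inactivate prostaglandin E2. They were chosen by symbol, with co-culture ratios of these data already known, and are read by 15 of the 43603 probes on the array. Of these, 12 probes of 7 genes were bright enough to be tested, among 28692 tested probes. Both PTGS1 probes and the HPGD probe were not.

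Prostaglandin E2 synthesis starts when cytosolic phospholipase A2, the product of PLA2G4A, releases arachidonic acid from membranes. A cyclooxygenase, encoded by PTGS1 (constitutive) or PTGS2 (inducible), turns it into prostaglandin H2, and the synthases encoded by PTGES, PTGES2 and PTGES3 turn that into prostaglandin E2. The receptors encoded by PTGER2 and PTGER4 raise cyclic AMP in the receiving cell, and the HPGD enzyme inactivates the ligand. Cyclooxygenase-2 is found in many carcinomas, mammary carcinoma among them, and macrophages are a further source of prostaglandin E2.

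RNA came from P114 and CMT-U27, established cell lines of canine mammary cancer, from cells sorted for Sca1, EpCAM and CD44. These stem-like cells had been kept to day 3 with tumour-associated macrophages (co-culture) or by themselves (single culture). Each line had 2 arrays, and every array held co-cultured and single-cultured cells of a line in different dyes, exchanged between the 2 arrays. The labels call the arrays biological replicates and do not say whether the extracts were separate, so p-values measure the spread between arrays, which may be technical. All ratios are log2 co-culture over single culture, and an SD is over 2 arrays.

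On P114 replicate 1, 89.4% of spots in the co-culture channel and 91.7% in the single-culture channel were well above background, against 57.9% to 65.7% on the other 3 arrays, so level calls are also given without it. Over the tested probes, the ratios of the P114 arrays correlated at -0.149 and those of the CMT-U27 arrays at 0.0529 (Pearson, across probes that share an array and are not independent). Of 16 macrophage marker genes, the co-culture channel held 16 above background on P114 replicate 1, 4 on P114 replicate 2 and 4 on each CMT-U27 array. The single-culture channel held 16 and 4 on the P114 arrays, and 2 and 3 on the CMT-U27 arrays. Their summed signal was 3754 and 1503 in P114 co-culture against 3936 and 1788 in P114 single culture, and 1230 and 1478 in CMT-U27 co-culture against 1160 and 1509 in CMT-U27 single culture. CSF1R, AIF1, MSR1, MRC1, C1QA, ITGAM, TYROBP and LYZ were above background on P114 replicate 1 only, and CD163 on the P114 arrays only. The 7 epithelial and sort markers on the array, EPCAM and CD44 among them, were above background in every channel. RNA per cell and the number of cells of a type cannot be told apart in such samples.

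Sequences are shown for the PTGS2 probe, because the main difference rests on it alone, and for the overlapping PTGES2 pair. Those of 1 probe each of PTGES3, PTGS1 and HPGD only identify probes with a wide spread (PTGES3) or a dim signal (PTGS1 and HPGD). The sequences do not explain the spread or the dim signal. They are the array's probe sequences, 5′ to 3′, and the capitals mark the bases that the PTGES2 probes share (54 of 60). The PTGS2 probe lies at chr7:19668185-19668244 of CanFam3.1 on the minus strand, and only its first 30 bases are given.
PTGS2 at transcript position 3316: atgccgactgaattcggagtataatatatg
PTGES2 at transcript position 675: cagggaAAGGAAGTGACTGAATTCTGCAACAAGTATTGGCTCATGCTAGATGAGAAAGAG
PTGES2 at transcript position 681: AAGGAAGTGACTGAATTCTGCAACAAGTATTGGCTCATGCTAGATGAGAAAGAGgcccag
PTGES3 at transcript position 1215: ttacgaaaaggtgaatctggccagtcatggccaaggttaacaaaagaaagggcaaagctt
PTGS1 at transcript position 1788: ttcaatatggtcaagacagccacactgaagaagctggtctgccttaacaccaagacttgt
HPGD at transcript position 717: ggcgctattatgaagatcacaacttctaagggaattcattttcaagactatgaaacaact

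PTGS2 was bright in P114 and near background in CMT-U27. Its background-subtracted signal, in the scanner's arbitrary units, was 1316 and 1711 in P114 co-culture, against 3055 and 2683 in P114 single culture. In CMT-U27 it was 24.9 and 14.2 in co-culture, against 19.7 and 16.8 in single culture, and was well above background on 1 of 2 arrays in either culture. Both P114 co-culture channels lay below both P114 single-culture channels, whereas the CMT-U27 cultures overlapped.

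The PTGS2 ratio was -0.99 and -0.64 on the P114 arrays and -0.02 on each CMT-U27 array. Near background, as in CMT-U27, the offset of 50 added to the signals draws ratios towards 0. The CMT-U27 ratios and their small SD are therefore no precise measure of an absent response. The P114 mean of -0.82 ± 0.25 (1.76-fold lower in co-culture) ranked 54 from the lowest of 28692 tested probes. PTGS2 was among the 16 probes (0.0558% of those tested) with ratios of -0.5 or lower on both P114 arrays. None of the other probes of these genes reached 0.5 on both arrays of a line, as 7 probes (0.0244%) did in P114 and 27 (0.0941%) in CMT-U27. Since this ratio was a reason to choose the gene, it is a description and no test is drawn from it. It was -0.64 without P114 replicate 1. With median centring in place of loess it was -0.46 when the median of all tested probes stood at 0.158, or -0.61 relative to that median. The CMT-U27 mean of -0.02 ± 0.01 moved to -0.26 with median centring, when the median of all tested probes stood at 0.684 in that line, or to -0.94 relative to that median. The PTGS2 ratio relative to other probes in CMT-U27 thus depended on the normalisation.

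**Figure D1:**
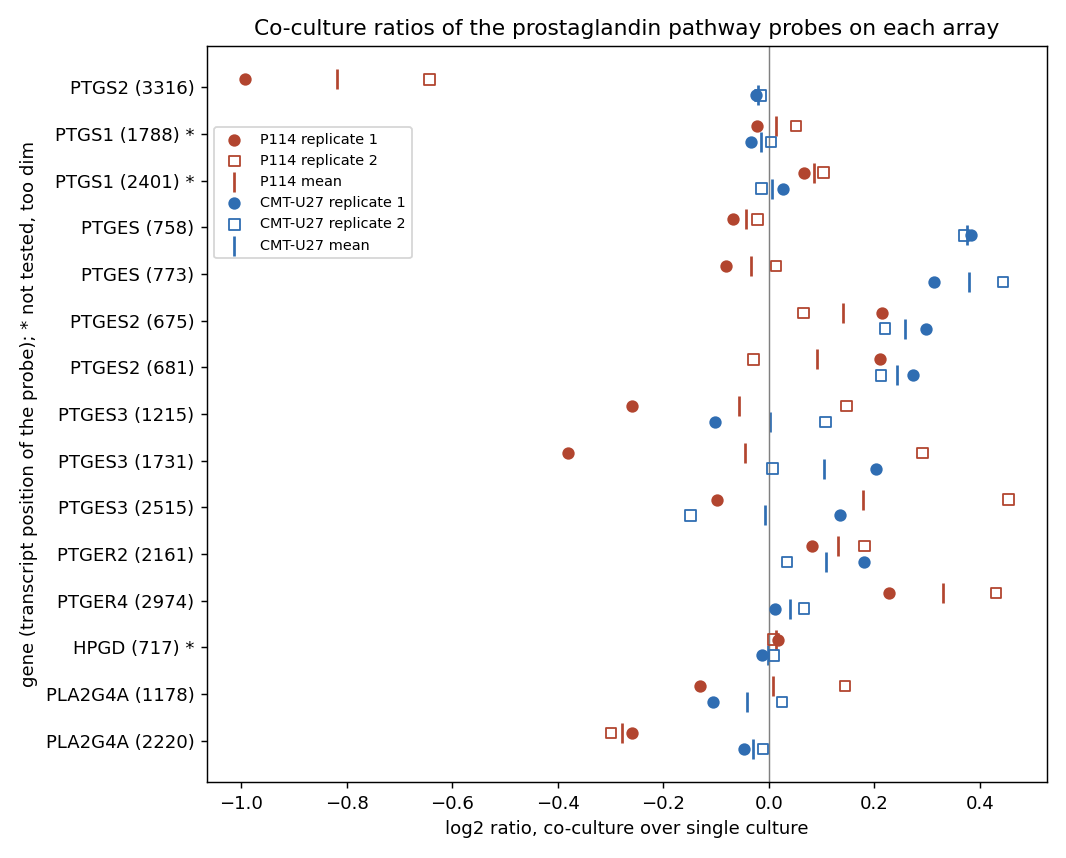
Log2 ratio of co-culture over single culture for each of the 15 probes (rows, with the transcript position in brackets), with a point for each array and a bar for the mean of a line. PTGS2 stands at -0.99 and -0.64 in P114 and at -0.02 on each array in CMT-U27. Its CMT-U27 signal is near background, where the offset of 50 draws ratios towards 0. The PTGES probes stand at 0.31 to 0.44 in CMT-U27. With median centring the PTGES ratios in P114 are 0.18 and 0.19, or 0.02 and 0.03 relative to the median of all tested probes.

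No probe on the array passed the co-culture test in either line, so none of the 12 probes did (0% of tested probes in each line; limma, Benjamini-Hochberg adjusted p under 0.05). Before adjustment, p was under 0.05 for 1758 probes in P114 and for 928 in CMT-U27. The smallest adjusted p of any probe was 0.797 in P114 and 0.147 in CMT-U27. Among the 12 probes the median ratio was -0.01 in P114, where 3 were above 0 on both arrays, 3 below 0 on both and 6 differed in sign. In CMT-U27 the median was 0.07, with 7 above 0 on both arrays, 2 below and 3 of differing sign. The overlapping probe pairs of PTGES and of PTGES2 are among the 7. No such share over all tested probes is given, so these counts cannot tell whether the genes had a common direction. The medians of all tested probes were 0.01 in P114 and 0.02 in CMT-U27.

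PLA2G4A, the source of arachidonic acid, lies on the same chromosome as PTGS2. Its nearer probe starts 240.7 kb past the PTGS2 probe, and the RefSeq table lists 2 genes between them, 0 of them protein-coding. At transcript position 2220 (chr7:19946185-19946244, plus strand) the signal was 481 and 558 in P114 co-culture, against 655 and 728 in P114 single culture. In CMT-U27 it was 180 and 199 in co-culture, against 218 and 214 in single culture. Co-culture was lower on every array, and the ratio was -0.28 ± 0.03 in P114 and -0.03 ± 0.03 in CMT-U27. With median centring it was -0.05 in P114 and 0.52 in CMT-U27, or -0.20 and -0.17 relative to the median of all tested probes in each line. The probe at position 1178, which spans an exon junction, stood at -0.13 and 0.14 in P114, so the gene's probes did not agree there.

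The cyclooxygenase PTGS1 and the inactivating enzyme HPGD were near background. The PTGS1 probe at position 1788 (chr9:60195963-60196022, minus strand) read 56.5 and 5.64 in P114 co-culture, against 64.1 and 11.01 in P114 single culture. In CMT-U27 it read 6.99 and 8.96 in co-culture, against 4.63 and 7.70 in single culture, and its other probe was not well above background in any channel. HPGD (chr25:24964932-24964991, minus strand) read 53.7 and 4.39 in P114 co-culture, against 47.2 and 3.54 in P114 single culture, and 2.91 to 4.28 in all CMT-U27 channels. Only P114 replicate 1, where far more spots passed the background filter, held either gene above background. No fold change is given for them.

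PTGES, the inducible prostaglandin E synthase, was brighter in CMT-U27 than in P114. Its probe at position 758 (chr9:54082160-54082219, plus strand) read 455 and 419 in P114 co-culture, against 519 and 427 in P114 single culture. In CMT-U27 it read 1794 and 1854 in co-culture, against 1422 and 1430 in single culture. The CMT-U27 co-culture channels lay above the single-culture channels without overlap, and those of P114 overlapped. The CMT-U27 ratio was 0.38 ± 0.01 (1.3-fold), ranking 101 from the highest of 28692, and the P114 ratio was -0.04 ± 0.03. The second probe, at position 773, shares 45 of 60 bases with the first and is no separate measurement. It gave 0.38 ± 0.09 in CMT-U27 and -0.03 ± 0.07 in P114. With median centring these PTGES ratios became 1.63 and 1.61 in CMT-U27, or 0.94 and 0.93 relative to the median of all tested probes. In P114 they became 0.18 and 0.19, or 0.02 and 0.03 relative to that line's median. PTGES3 at position 2515, at -0.01 in CMT-U27 with loess, rose there to 1.47, or 0.79 relative to the median. Such a rise was thus not particular to PTGES.

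PTGES2, a membrane-associated prostaglandin E synthase, lies 1265 kb from PTGES on chromosome 9. Its probe at position 675 (chr9:55347078-55347137, plus strand) stood at 0.22 and 0.07 in P114 and at 0.30 and 0.22 in CMT-U27. The overlapping probe at position 681 stood at 0.21 and -0.03 in P114 and at 0.27 and 0.21 in CMT-U27. The CMT-U27 means were 0.26 ± 0.05 and 0.24 ± 0.04, and the P114 means of 0.14 and 0.09 came mainly from P114 replicate 1. With median centring the CMT-U27 means became 1.20 and 1.17, or 0.51 and 0.48 relative to the median of all tested probes. Those of P114 became 0.25 and 0.19, or 0.10 and 0.04 relative to that line's median.

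PTGES3, a cytosolic synthase also known as the HSP90 co-chaperone p23, read 10719 to 22787 units over the 8 channels at its position 2515 probe. Its 3 probes lie on the minus strand of chromosome 10, that of position 2515 at chr10:884944-885003. All 3 were below 0 on P114 replicate 1, at -0.26, -0.38 and -0.10, and above 0 on P114 replicate 2, at 0.15, 0.29 and 0.45. In CMT-U27 they ran from -0.15 to 0.20. The spread between arrays exceeded the mean for all 3 probes in both lines. With median centring the CMT-U27 means became 0.87, 1.325 and 1.47, or 0.18, 0.64 and 0.79 relative to the median of all tested probes. Those of P114 became 0.23, 0.35 and 0.61, or 0.07, 0.19 and 0.45 relative to that line's median.

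PTGER4, which encodes the receptor EP4 (chr4:68663425-68663484, minus strand), read 1070 and 1042 in P114 co-culture, against 855 and 756 in P114 single culture. In CMT-U27 it read 534 and 470 in co-culture, against 545 and 492 in single culture. The P114 channels did not overlap between cultures, and the ratio was 0.33 ± 0.14 in P114 and 0.04 ± 0.04 in CMT-U27. With median centring it was 0.63 in P114 and 0.96 in CMT-U27, or 0.48 and 0.28 relative to the median of all tested probes. PTGER2, which encodes the receptor EP2 (chr8:28536574-28536633, plus strand), was not above background in either culture of P114, at 5.90 and 4.01 in co-culture and 4.96 and 3.28 in single culture. In CMT-U27 it read 202 and 195 in co-culture, against 163 and 191 in single culture, without overlap between the cultures. The CMT-U27 ratio was 0.18 and 0.03 on the 2 arrays (0.11 ± 0.10). With median centring it was 0.60, or -0.09 relative to the median of all tested probes, so its sign relative to other probes depended on the normalisation.

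**Figure D2:**
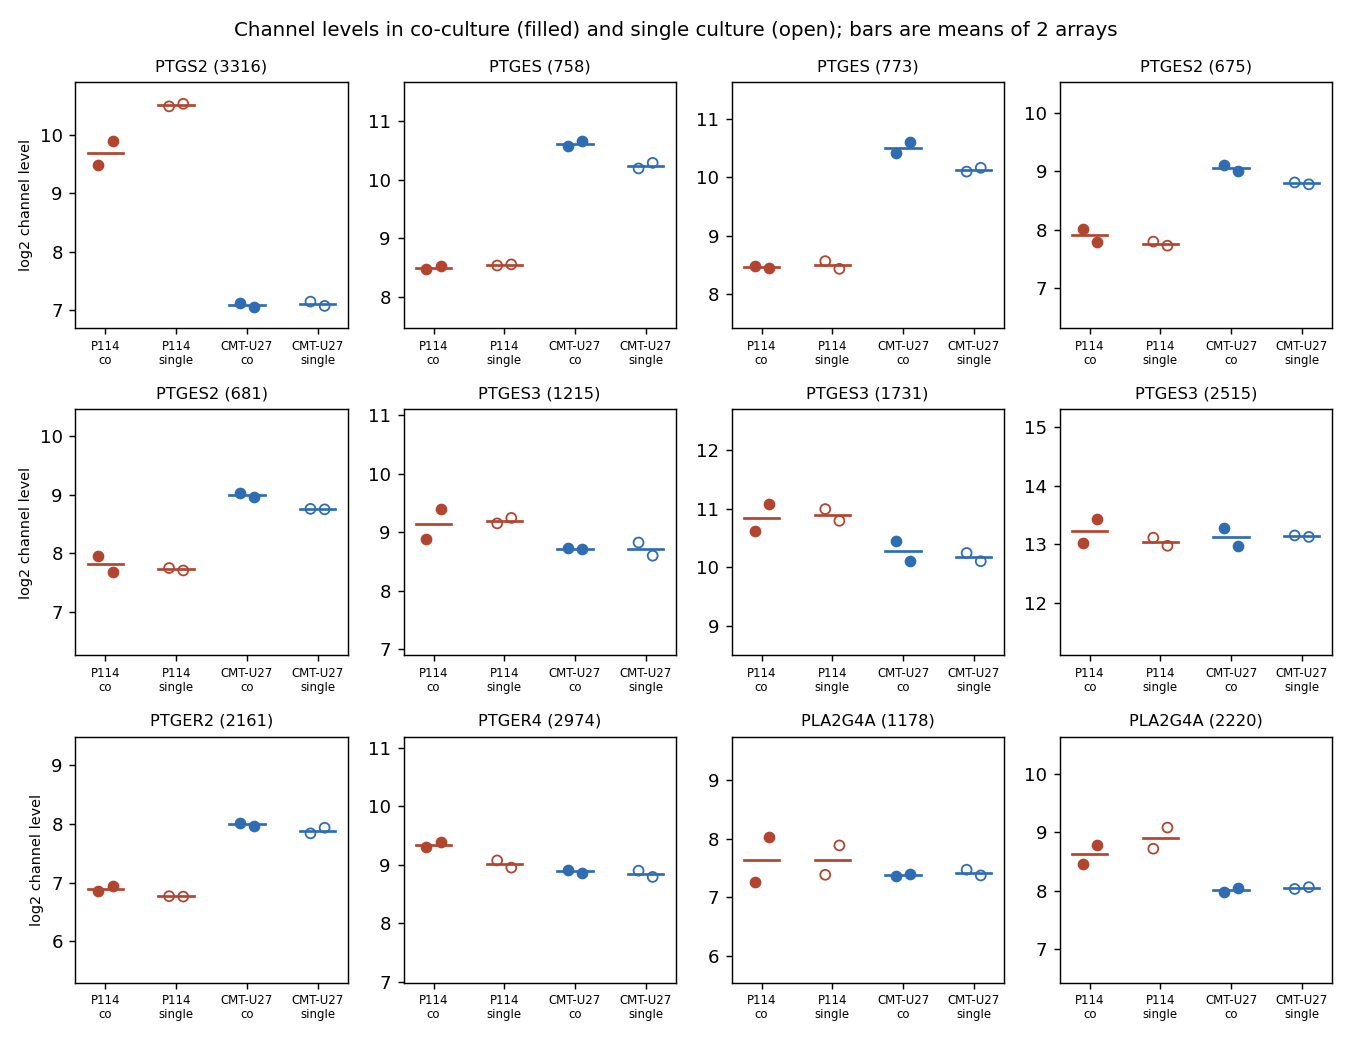
Normalised log2 channel level of the 12 tested probes in P114 co-culture, P114 single culture, CMT-U27 co-culture and CMT-U27 single culture, left to right, with a point per array, a bar for the mean and axes that span at least 4 log2 units. PTGS2 is at 9.49 and 9.88 in P114 co-culture, 10.48 and 10.53 in P114 single culture and near 7.1 in CMT-U27, while PTGES, PTGES2 and PTGER2 are lower in P114.

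The lines were then compared with each other in single culture, on log2 channel levels. The detection of PTGS2 in CMT-U27 was among the earlier results known when the genes were chosen, so its p-value here is not independent evidence. Each line was scanned in a session of its own, so line and scan session cannot be told apart. PTGS2 stood at 10.48 and 10.53 in P114 and at 7.15 and 7.08 in CMT-U27. The difference was 3.39 (SE 0.25, 95% interval 2.77 to 4.02, limma adjusted p = 0.00119), or 10.5-fold higher in P114 on this scale. As the CMT-U27 signal was well above background on 1 of 2 arrays, the size of the fold depends on how signals near background are scaled. On the scanner's processed signals less each channel's 75th percentile it was 6.92, or 121-fold (adjusted p = 0.00405). Without P114 replicate 1 it was 3.42 (adjusted p = 0.00346).

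PTGES was lower in P114 by both probes, at -1.70 (SE 0.13, adjusted p = 0.00119, 3.24-fold) and -1.63 (adjusted p = 0.00448). Without P114 replicate 1 these were -1.69 (adjusted p = 0.00913) and -1.69 (adjusted p = 0.0233). PTGES2 was lower by about the same amount at its pair of probes, at -1.03 (adjusted p = 0.0194, 2.04-fold) and -1.03 (adjusted p = 0.0326), with adjusted p of 0.0301 and 0.026 without P114 replicate 1. The 3 PTGES3 probes did not pass, at 0.49, 0.72 and -0.09, and the widest of their 95% intervals, at position 1215, ran from -0.49 to 1.46.

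PTGER2 was lower in P114 (adjusted p = 0.00417; 0.0532 without P114 replicate 1). It entered the test through CMT-U27 alone, and as its signal in P114 was not above background, the fold is a bound, taken against the dimmest signal still well above background on each array or the probe's own where higher. It was at least 2.04-fold lower in P114 single culture than in CMT-U27 single culture. PTGER4 differed by 0.17 (95% interval -0.32 to 0.65, adjusted p = 0.635). PLA2G4A was higher in P114 at position 2220, at 0.85 (adjusted p = 0.0215, 1.81-fold; 1.03 and adjusted p = 0.0223 without P114 replicate 1), and stood at 0.21 at position 1178 (95% interval -0.60 to 1.03, adjusted p = 0.729).

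In all, 7 of the 12 tested probes passed, in 5 genes, against 15.2% of all tested probes (7.02% higher and 8.23% lower in P114). PTGS2 and PTGER2 entered the test only through the line in which they are bright, and PTGES and PTGES2 have overlapping probes, so this count supports nothing about the genes as a set. All 7 calls were lost when either CMT-U27 array was left out, with adjusted p between 0.064 and 0.406; the PTGS2 difference was then 3.43 or 3.36.

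**Figure D3:**
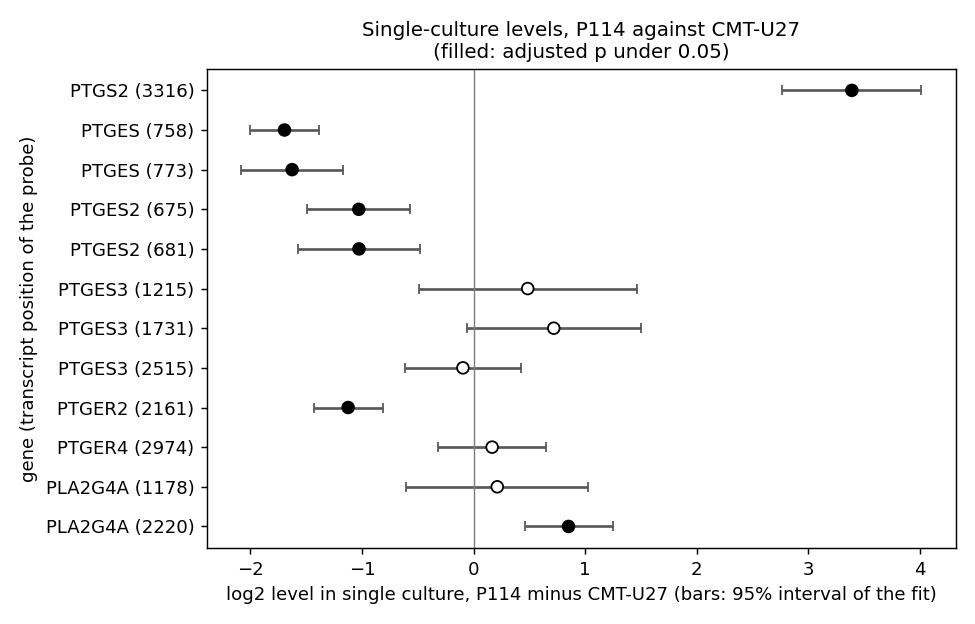
Difference in single-culture log2 level, P114 minus CMT-U27, for the 12 tested probes, with the 95% interval of the fit; filled points have an adjusted p under 0.05. PTGS2 (3.39) and PLA2G4A at position 2220 (0.85) are higher in P114, and PTGES, PTGES2 and PTGER2 are lower.

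Over the 8 channels, the genes whose pattern lay closest to that of PTGS2 were MAN1A1, TGFBR2, ASPA, SNAI2 and CALHM2, by the root mean square difference between levels centred on each gene's mean. These differences were 0.16, 0.21, 0.25, 0.29 and 0.29 log2 units, among 10455 genes with a median of 1.56. MAN1A1, a Golgi mannosidase gene, had P114 ratios of -0.50 and -0.49 and was well above background in CMT-U27 single culture on 1 of 2 arrays. For TGFBR2, the type II TGF-beta receptor gene, the P114 ratios were -0.30 and -0.54, and for ASPA, the aspartoacylase gene, -0.33 and -0.69. SNAI2, a transcriptional repressor gene, and CALHM2 had smaller P114 means, of -0.23 and -0.09. ASPA and SNAI2 were above background on no CMT-U27 array in single culture. All channels of a line share its arrays, and the gap between the lines takes up most of the likeness.

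**Figure D4:**
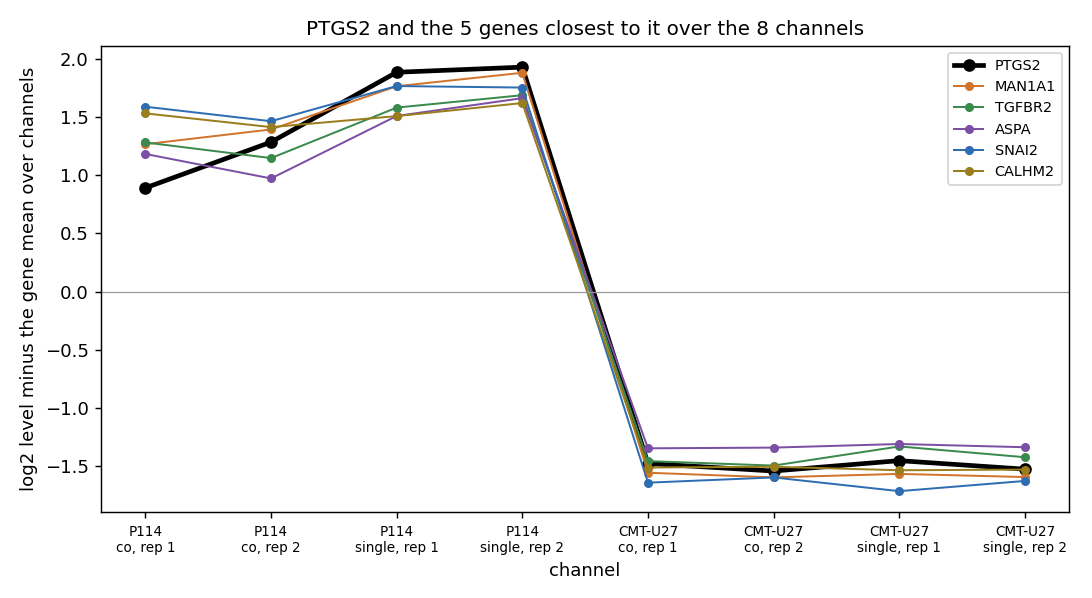
Log2 level of PTGS2 (thick line) and of the 5 genes closest to it in each of the 8 channels, each minus its own mean over the channels. All 6 stand above 0 in P114 and below 0 in CMT-U27, and PTGS2 has the widest gap in P114 between co-culture (mean 1.09) and single culture (mean 1.91).

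Other genes of the pathway were read from lists chosen with earlier results of these data known, each gene by its brightest tested probe. As no probe on the array passed in co-culture in either line, no listed gene could, and this is no result about the lists. On the single-culture level, 19 listed genes passed (cell type markers included), and the counts below stand against 15.2% of all tested probes (7.02% higher and 8.23% lower in P114). Of the 19, 13 still passed with P114 replicate 1 left out, 12 with P114 replicate 2 left out, and 5 with either CMT-U27 array left out. Every list call given below as lost without P114 replicate 1 was also lost without P114 replicate 2. The differences kept their sign in both fits, which have no dye term. Such a loss therefore does not single out P114 replicate 1. Among 11 tested genes of 20 further prostanoid enzymes, transporters and receptors, the median ratio was 0.01 in P114 and 0.02 in CMT-U27. In single culture 1 was higher in P114 and 2 lower. PTGR1, an enzyme of prostaglandin and leukotriene B4 breakdown, stood at 1.60 (adjusted p = 0.00361). PTGER1, the receptor EP1, stood at -1.20 (adjusted p = 0.00714), and TBXAS1, thromboxane synthase, at -0.79 (adjusted p = 0.0199, but 0.268 without P114 replicate 1).

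Of 22 phospholipase and arachidonate supply genes, 17 were tested, and 1 was higher and 3 lower in P114 single culture. ACSL4, which couples arachidonate to coenzyme A, stood at 1.52 (adjusted p = 0.0126), with co-culture ratios of -0.36 and -0.09 in P114. PLA2G16 and MGLL (monoacylglycerol lipase) were lower, at -0.86 and -0.90 (adjusted p = 0.0197 and 0.0206), and each was detected above background on 1 of the 2 P114 arrays. Both probes thus entered the test through CMT-U27 alone, where they are brighter. The size of their differences depends on how signals near background are scaled. The 4 PLA2G16 probes ran from -0.93 to -0.28. PLA2G6 stood at -0.82 (adjusted p = 0.0245, but 0.158 without P114 replicate 1), and its other probe at -0.06. In CMT-U27 co-culture the ratio furthest from 0 was that of ANXA1, the annexin A1 gene, at -0.30 ± 0.17. The lipoxygenase branch had 9 tested genes of 15, with MGST2, a microsomal glutathione transferase, lower in P114 (-0.89, adjusted p = 0.0142, but 0.315 without P114 replicate 1).

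Among 19 genes for transcription factors and RNA-binding proteins that act on PTGS2, 13 were tested. RELA, an NF-kB subunit, had ratios of 0.43 and 0.39 in P114 and of 0.13 and 0.33 in CMT-U27, while its other probe averaged 0.09 in P114. FOS stood at -0.20 and -0.74 in P114 and at -0.36 on both arrays of CMT-U27. In single culture FOS (-2.80, adjusted p = 0.0056) and CREB1 (-0.79, adjusted p = 0.0401) were lower in P114, and 0 were higher. CREB1 had an adjusted p of 0.251 without P114 replicate 1, and its 3 probes ran from -0.79 to 0.20.

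Of 18 genes that respond to prostaglandin E2 or cyclic AMP, 12 were tested, with median ratios of -0.03 in P114 and 0.01 in CMT-U27. EREG, the gene of the growth factor epiregulin, had P114 ratios of -0.62 and -0.60, and RGS2, a G-protein signalling regulator, had -0.26 and -0.14. In CMT-U27 EREG stood at 0.01 and 0.08 and RGS2 at 0.10 and 0.05. Both were higher in P114 single culture, EREG by 2.48 (adjusted p = 0.000518) and RGS2 by 1.76 (adjusted p = 0.00155; 0.61 at its other probe). NR4A2, an orphan nuclear receptor gene, stood at -0.12 ± 0.02 in P114 and at -0.05 ± 0.04 in CMT-U27. Its other probe averaged -0.16 in P114 and 0.03 in CMT-U27, so the sign differed between probes in CMT-U27. The mean channel levels of the first probe were 7.17 to 7.36, a dim range in which the offset draws ratios towards 0.

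Of 7 tested epithelial and sort markers, 4 were lower in P114 single culture and 0 higher. EPCAM stood at -2.66 (adjusted p = 0.000744), KRT18 at -2.34 (adjusted p = 0.0019), KRT14 at -2.47 (adjusted p = 0.00818) and KRT19 at -3.91 (adjusted p = 0.00695). KRT18 and KRT19 had adjusted p of 0.0693 and 0.0787 without P114 replicate 1. The other 3 did not pass, with CDH1 at -1.84 (adjusted p = 0.0848), KRT5 at -0.17 (adjusted p = 0.644) and CD44 at 1.45 (adjusted p = 0.11). Of the 16 macrophage markers 4 were tested and only CD86 passed (adjusted p = 0.000483), while CD14, CD163 and CD68 stood at 0.11, 0.21 and -0.57. CD86 was above background on no CMT-U27 array, so it entered the test through P114 alone, where it is bright. It was at least 5.14-fold higher in P114 single culture than in CMT-U27 single culture, with co-culture ratios of -0.34 and -0.35 in P114. Of 6 fibroblast markers COL1A2 alone passed, at 2.81 (adjusted p = 0.000399), and the other 5 stood between 0.12 and 0.33. Of 4 endothelial markers KDR alone passed, lower in P114 at -0.83 (adjusted p = 0.0158) and at -1.02 by its other probe. KDR was above background on 1 of the 2 P114 arrays in either culture, so it entered the test through CMT-U27 alone. PECAM1, CDH5 and VWF stood at -0.46, 0.28 and -0.26. The part of other cell types in these results was not tested.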

How the data were processed

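Per the file headers, the deposited scanner files give linear intensity values per spot from Agilent Feature Extraction, version 10.10.1.1 (10.7.3.1 per the submitters' processing notes). The deposited series value table is the software's log10 ratio of red over green; it matched the scanner files with a largest gap of 0, and was used as an alternative. The dye of each culture follows the channel labels. Probe names and CanFam3.1 positions come from the files; all 9 symbols were found in the RefSeq table, which was used for names and neighbours only.

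Mean intensities were corrected with normexp (offset 50) and normalised by loess within arrays, giving the 1417 control spots no weight. Outlier spots were dropped, which cost 40 probes. A probe was tested if some line and culture had it well above background on each of its 2 arrays. limma 3.58.1 (in R 4.3.3) fitted a coefficient per line and a dye term to the log2 ratios (1 residual and 2.76 prior degrees of freedom). Levels were compared by a separate-channel fit after Aquantile (3 residual and 2.7 prior degrees of freedom, correlation within spots 0.936). P-values were adjusted over all 28692 tested probes. All arrays lay on 1 slide. Scripts were tested on simulated data. Figures used Python 3.11.15 and matplotlib 3.10.9. Precision is limited by the number of arrays.

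The genes and lists were chosen with earlier results of these data known. Named were all 9 genes. From each other list, the rule took the 4 genes with the largest mean ratio of like sign in each line and the 4 with the smallest level p, of which the text gives a selection made after their values were seen, and the 5 genes closest to PTGS2. Alternatives were other background corrections, normalisations, ratio sources, filters and dye terms, and each array left out.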

Additional observations from a re-analysis of the deposited data

Results flagged for a closer look

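For 6 probes both P114 arrays lay on the opposite side of 0 from both CMT-U27 arrays, and limma's test of the difference between the lines gave an adjusted p of 1 for each. Looked at were the probes of the genes described here and the pathway list genes named by the ratio rule. That rule takes genes of like sign on both arrays of a line, and no share over all tested probes is given. The number found is therefore no result about these genes. The P114 minus CMT-U27 difference in log2 co-culture ratio was -0.421 for PTGES at position 758 (-0.04 in P114 and 0.38 in CMT-U27) and -0.656 for EREG (-0.61 and 0.04). It was -0.28 for ACSL4, -0.273 for RGS2, 0.118 for CBR3, a carbonyl reductase gene, and -0.075 for ABCC4, a prostaglandin exporter gene. Differences of the size seen for CBR3 and ABCC4 rest on ratios within 0.2 of 0. PTGES at position 758 was near 0 in P114 as well, and its overlapping probe at position 773 stood at -0.08 and 0.01 there. With median centring the P114 mean of PTGES at position 758 was 0.18. The other RGS2 probe averaged -0.03 in CMT-U27, so it did not share the opposite sign.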

How the results depend on the processing

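Without background correction 12 probes passed in CMT-U27 co-culture and 1 in the difference between the lines, and with a filter on all channels 1 passed in CMT-U27. Median centring gave 5 probes in P114, 17343 in CMT-U27 and 12448 for the difference, and a PTGS2 ratio in P114 of -0.456. The level comparison gave 2119 probes (1211 higher and 908 lower in P114) on processed signals less the 75th percentile and 9405 with no dye term, against 4375 (2014 higher and 2361 lower). With each array left out in turn, calls ran from 0 to 64 in P114 (64 without P114 replicate 2), 0 to 17 in CMT-U27 (17 without CMT-U27 replicate 1), 0 to 61 for the difference (61 without P114 replicate 2, 8 without CMT-U27 replicate 1) and 265 to 4562 for the level (281 without CMT-U27 replicate 1, 265 without CMT-U27 replicate 2). These fits have no dye term, and those of the level take the correlation within spots from the full data. The PTGS2 ratio in P114 ran from -0.9925 to -0.6434. The level of PTGES3 at position 2515 turned to 0.21 on processed signals, and that of PLA2G4A at position 1178 to -0.03761 without P114 replicate 2 (0.4637 without P114 replicate 1). On processed signals the calls of both PTGES2 probes (adjusted p = 0.0742 and 0.108) and of PLA2G4A at position 2220 (0.0708) were lost. With no filter on dim probes PTGES2 at position 681 was lost (0.0637), and with no dye term PTGES3 at position 1731 passed (0.0471). Apart from the fits with fewer arrays, the cause was not tested. The ratios pair the cultures within each array, and the replicate numbers pair nothing across the lines.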
